A study of Mus musculus with 4 samples.

Results

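The genes described here are 47 mouse genes of DNA damage signalling and repair. They were given as a list of names, by function. They were looked up by symbol among the 53845 genes of a read count table, and all 47 were found and were among the 17504 genes tested. The table covers RNA-seq of crypts, the glands at the base of the villi where stem cells divide, from WT mice (2 libraries) and Vil-CREPTKO mice (2 libraries) of strain C57BL/6. In Vil-CREPTKO mice a villin-driven Cre, which is active throughout the intestinal epithelium, removes exon 3 of the floxed Rprd1b gene, which encodes CREPT. CREPT binds the C-terminal domain of RNA polymerase II. The breeding that the study describes crosses Cre carriers with floxed mates, all homozygous for the floxed allele, so WT littermates of that cross would be floxed without Cre. The labels do not restate this for the mice sequenced. No mouse in this comparison was irradiated or treated with another agent. The study used male and female mice aged 6 to 8 weeks, and the labels give no age or sex for a library. The methods call the libraries biological replicates, and legends of the study's RNA-seq panels give 2 mice for each genotype. The study deleted CREPT to learn what it does in intestinal renewal and regeneration, and the comparison asks whether crypts without it carried other levels of repair gene RNA before any injury.

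DNA repair divides the work by lesion. The kinases ATM and ATR detect broken or stalled DNA and pass the signal to the checkpoint kinases. Double-strand breaks are either copied from the sister chromatid by homologous recombination or rejoined directly by non-homologous end joining. The Fanconi pathway opens interstrand crosslinks, mismatch repair removes replication errors, and PARP, XRCC1 and DNA ligase III seal single-strand breaks. Many of these genes are transcribed most in cycling cells, and crypts hold most of the dividing cells of the intestine.

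The deleted gene was read first. Rprd1b stood at 60.5 and 61.6 CPM in the WT libraries and at 26.3 and 29 CPM in the Vil-CREPTKO libraries. CPM, the normalised read count used here, are counts scaled to the library total over the tested genes after TMM scaling, a correction for differences in library composition. The log2 fold change was −1.14 (SE 0.122, adjusted p = 0.00411, edgeR quasi-likelihood test with Benjamini-Hochberg adjustment over all genes tested, used for every adjusted p below). The Vil-CREPTKO mean was 45.3% of WT. Counts cover all exons of the gene, including those outside the deleted part. Libraries held 47241049 to 49369315 counts. Xist was at 863 CPM in WT replicate 2 and at 0.299 to 0.529 CPM in the others, and Y-linked genes had 0 counts in WT replicate 2 and 7126 to 7553 counts in the others, so the libraries were not matched for sex. The summed CPM of 10 enterocyte markers ran from 19296 to 25753 in WT and was 32777 and 20449 among the Vil-CREPTKO libraries. The 23 proliferation markers summed to 1933 and 2044 CPM in the WT libraries, against 1702 CPM for replicate 1 and 2137 CPM for replicate 2 of Vil-CREPTKO. The 10 stem cell markers summed to 2480 and 2054 CPM in WT and 1658 and 2385 CPM with Vil-CREPTKO. The 9 Paneth cell markers summed to 12725 and 17691 CPM and to 16504 and 17656 CPM, so both sums overlapped. Single markers within these lists did pass the test. Tyms, a proliferation marker, fell (−0.78 on the log2 scale, adjusted p = 0.02). Among Paneth cell markers Defa22 rose (2.24, adjusted p = 0.0316) and Pnliprp2 fell (−1.83, adjusted p = 0.0206). The sums of 3 secretory or sensory cell types did not overlap. The 8 tuft cell markers were lower in Vil-CREPTKO, at 130 and 123 CPM against 209 and 252 CPM in WT. At an adjusted p under 0.05, 3 of them fell (37.5%, beside 2.29% of all genes tested). These were Trpm5 (−1.56 on the log2 scale, adjusted p = 0.00352), Avil and Sh2d6. The sum of 9 goblet cell markers was also lower, at 7561 and 7485 CPM against 8893 and 9582 CPM. That of 10 enteroendocrine markers was higher, at 523 and 597 CPM against 445 and 418 CPM. No marker of either list passed the test, and 2 goblet and 4 enteroendocrine markers had a fold change of the opposite sign. Of markers from outside the epithelium, the sum of 11 T cell genes was lower, at 648 and 546 CPM against 883 and 688 CPM in WT. That of 8 B and plasma cell genes was higher, at 108 and 147 CPM against 93.4 and 60.1 CPM. Again no gene of either list passed the test, and 1 gene of each had a fold change of the opposite sign. The part of these cell types in the results below was not tested. Over the 4 libraries, 8 myeloid genes summed to 17 to 31.5 (S100a8 and S100a9 at 0 in some libraries), 9 stromal genes to 11.3 to 30, 5 smooth muscle genes to 0.591 to 0.752 (Myh11, Acta2 and Actg2 at 0 in some) and 5 red blood cell genes to 12.4 to 66.4 CPM. In bulk RNA, fewer cells of a type and less RNA per cell cannot be told apart.

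Of the 47 genes, 1 fell and 0 rose at an adjusted p under 0.05, and the gene that fell was Lig3. Over all genes tested, 2.29% fell and 0.423% rose at that threshold. With the further requirement of a change over 2-fold, which the study used, Lig3 was again the only member, beside 1.34% of all genes lower and 0.297% higher. At an unadjusted p under 0.05 the members numbered 4, of which Lig3, Rad54l and Xrcc6 were lower and Rbbp8 was higher. DESeq2 called 2 members, Lig3 and Rad54l. The median log2 fold change was −0.06 over the 47 genes and −0.01 over all genes tested, and without Vil-CREPTKO replicate 1 the members' median was 0.07. In 12 genes both Vil-CREPTKO libraries lay below both WT libraries and in 6 both lay above, shares of 25.5% and 12.8% beside 24.2% and 21% of all genes.

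The depth allowed a bound on most of the others. For 43 of the 47 genes (91.5%, beside 60.3% of all genes tested) the 95% interval of the log2 fold change lay within 2-fold in either direction. The exceptions were Lig3, Rad54l, Atrip and Rad51c. Such intervals were also found in 86.4% of 118 other repair genes read below and in 95.7% of the 23 proliferation markers. The estimate itself lay between −0.5 and 0.5 in 44 of the 47 genes. The plots of CPM by library and of the fold changes show the 8 roles into which the genes were sorted. Each role holds few genes, so a role without a call is close to the shares over all genes (2.29% lower, 0.423% higher).

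**Figure D1:**
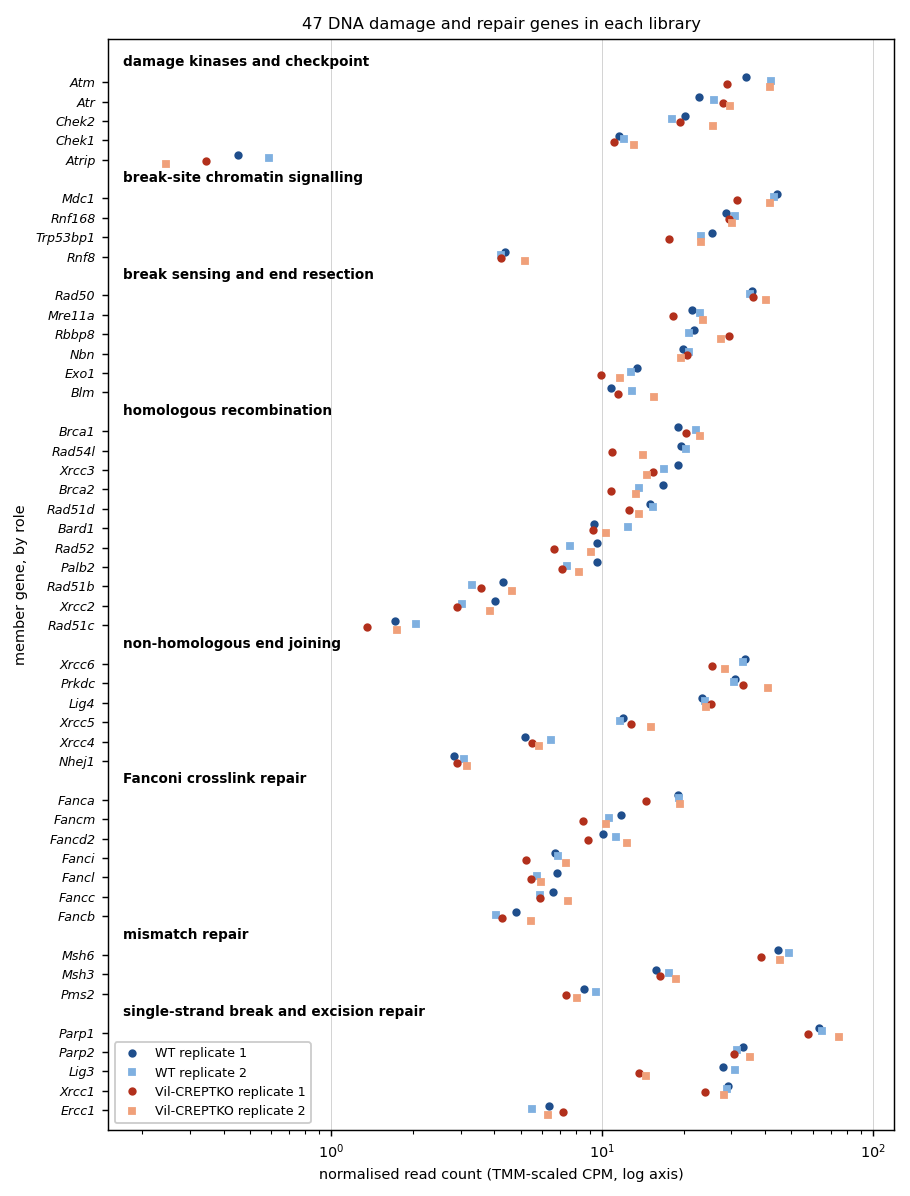
Normalised read count (CPM after TMM scaling, log axis) of each of the 47 genes in the 2 WT libraries (blue) and the 2 Vil-CREPTKO libraries (red), sorted by role and by the WT mean. Lig3 and Rad54l are the genes whose red points stand farthest to the left of the blue points at more than 1 CPM, and Atrip lies alone under 1 CPM.

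**Figure D2:**
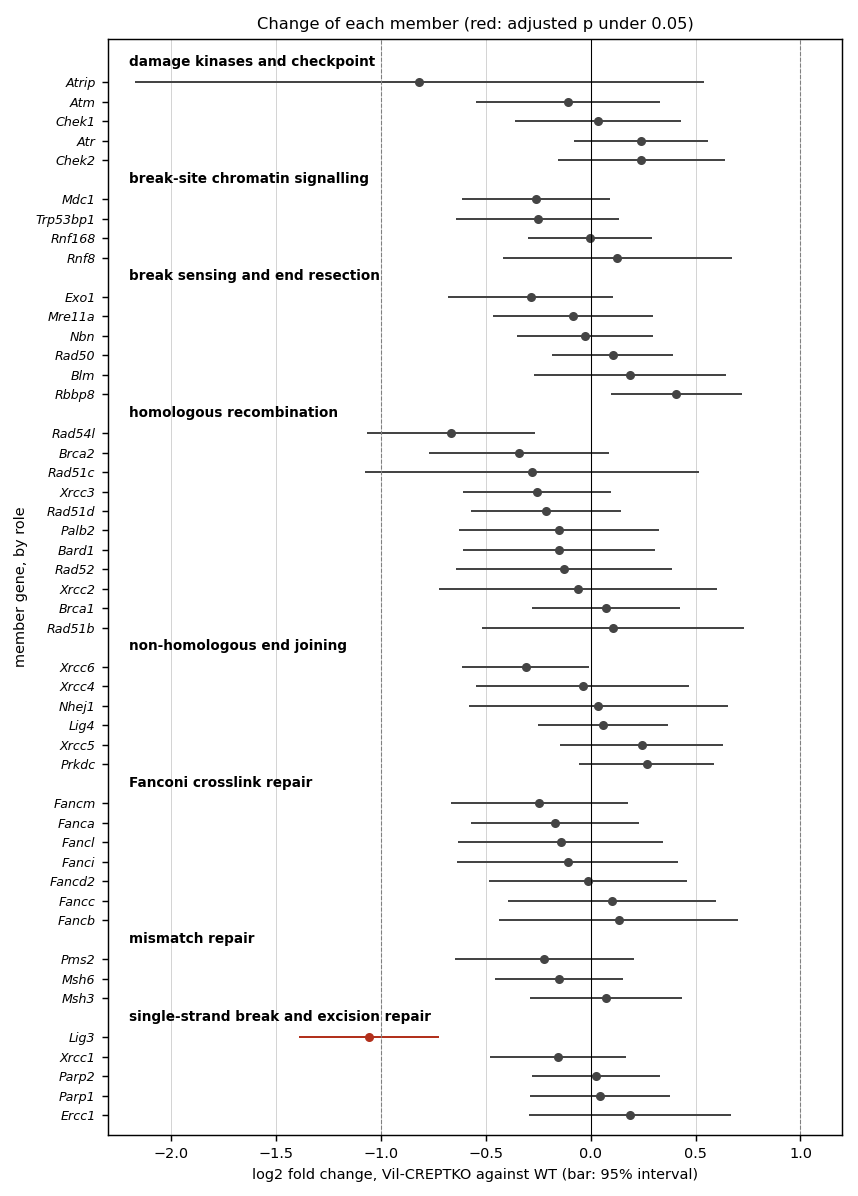
Log2 fold change of each member, Vil-CREPTKO against WT (points), with its 95% interval from the edgeR fit (bars), by role; dashed lines mark a 2-fold change. Lig3, in red at −1.06, is the only member with an adjusted p under 0.05, and 43 intervals lie between the dashed lines.

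Lig3 encodes DNA ligase III, which seals nicks after single-strand break and base excision repair in the nucleus and is the DNA ligase of mitochondria. It stood at 27.9 and 30.8 CPM in WT and at 13.7 and 14.5 CPM in Vil-CREPTKO. The Vil-CREPTKO libraries thus read at 48% of WT and no value of the groups overlapped. The log2 fold change was −1.06 (SE 0.144, 95% interval −1.39 to −0.73, adjusted p = 0.00835). The adjusted p stayed between 0.00566 and 0.031 when each library was left out in turn. The change was under 2-fold, at −0.98, without WT replicate 2, which leaves libraries of 1 sex, and at −0.99 once libraries were corrected for the GC content and length of transcripts.

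Lig3 (ENSMUSG00000020697) occupies chr11:82781108-82804274 (GRCm38, plus strand). Its last exons share 1826 bases, 25.1% of its exon length, with Rffl on the opposite strand, and the strand setting of the counting was not given in the sources used here. Rffl, a ubiquitin ligase gene, stood at 19.4 and 19 CPM in WT and 19.3 and 21.6 CPM in Vil-CREPTKO, which gave a log2 fold change of 0.09 (adjusted p = 0.842). On the other side, 66 bases before the start of Lig3, the antisense transcript Gm11423 begins and runs away from it. Gm11423 read at 3.06 and 2.68 CPM in WT and 1.59 and 1.08 CPM in Vil-CREPTKO, at −1.11 on the log2 scale (SE 0.34, adjusted p = 0.16), so its groups did not overlap but it missed the threshold. The stretch before the Lig3 start is shown because it precedes the member that fell. Its first 184 bases are exon of Gm11423. It comes from the RefSeq promoter table (GRCm38.p6, chr11:82780859-82781107, plus strand), and holds no E2F, CHR or CCAAT motif of the kinds listed below, so no letter is in capitals.
Lig3: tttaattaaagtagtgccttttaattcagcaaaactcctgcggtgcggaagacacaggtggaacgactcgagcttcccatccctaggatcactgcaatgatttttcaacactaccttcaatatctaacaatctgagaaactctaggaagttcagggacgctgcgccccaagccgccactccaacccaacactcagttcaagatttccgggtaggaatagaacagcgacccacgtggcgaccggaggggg

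The other genes of single-strand break and excision repair read near WT. Parp1, the sensor that marks breaks with poly(ADP-ribose), was the most abundant member per length, at a WT level of 12.1 RPKM, that is, CPM divided by exon length in kilobases. It stood at 63.2 and 65.1 CPM in WT and at 57.4 and 74.9 CPM in Vil-CREPTKO, so the Vil-CREPTKO libraries lay on either side of both WT libraries. Its log2 fold change was 0.04 (95% interval −0.29 to 0.37, adjusted p = 0.934). Parp2 was likewise flat, at 0.02 (−0.28 to 0.33). Xrcc1, the scaffold that binds and stabilises the ligase III protein, stood at 29.1 and 28.9 CPM in WT and 23.9 and 28.2 CPM in Vil-CREPTKO. Its log2 fold change was −0.16 (95% interval −0.47 to 0.16, adjusted p = 0.693), so the interval excludes a fall of the size seen in Lig3. Ercc1, the partner of the XPF nuclease that cuts beside bulky lesions and crosslinks, read at 6.37 and 5.49 CPM in WT and 7.18 and 6.31 CPM in Vil-CREPTKO (adjusted p = 0.762).

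Among the damage kinases and checkpoint genes, 0 of 5 passed the test. Atm stood at 33.9 and 42.1 CPM in WT and 28.8 and 41.7 CPM in Vil-CREPTKO, a spread within each group larger than the difference between the means (log2 fold change −0.11, adjusted p = 0.864). Atr, which responds to single-stranded DNA at stalled forks, read at 22.9 and 25.9 CPM in WT and 28 and 29.6 CPM in Vil-CREPTKO. Both Vil-CREPTKO values lay above both WT values, but the difference of 0.24 missed the threshold (95% interval −0.07 to 0.55, adjusted p = 0.498). Chek2, the checkpoint kinase downstream of ATM, showed the same log2 fold change of 0.24 (adjusted p = 0.607) with overlapping groups, at 20.2 and 18.1 CPM in WT and 19.5 and 25.8 CPM in Vil-CREPTKO. Chek1, its counterpart downstream of ATR, was at 11.6 and 12 CPM in WT and 11 and 13.2 CPM in Vil-CREPTKO (0.03, 95% interval −0.36 to 0.43).

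Atrip, the partner that brings ATR to single-stranded DNA, was by far the least abundant member. It read at 0.451 and 0.589 CPM in WT and 0.345 and 0.244 CPM in Vil-CREPTKO, which is 12 counts in the lowest library, and its WT level was 0.0727 RPKM. The log2 fold change of −0.82 carried an SE of 0.593 and a 95% interval of −2.17 to 0.53 (adjusted p = 0.612). A change of 2-fold was not detectable at this depth. Atrip shares 16% of its exon bases with Trex1 on the same strand, so its counts depend on how such reads were assigned.

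Break-site chromatin signalling had 0 of 4 genes past the test. Mdc1, the adaptor that reads phosphorylated histone H2A.X, stood at 44.1 and 43.2 CPM in WT and 31.4 and 41.6 CPM in Vil-CREPTKO. Trp53bp1, whose protein shields broken ends from resection, stood at 25.5 and 23.1 CPM in WT and 17.6 and 23.2 CPM in Vil-CREPTKO. In both genes Vil-CREPTKO replicate 1 was the low library and replicate 2 was close to WT. The log2 fold changes were −0.26 for Mdc1 (adjusted p = 0.512) and −0.25 for Trp53bp1 (adjusted p = 0.573). The ubiquitin ligases Rnf8 and Rnf168, which act between these proteins, read at 0.13 and 0.00 on the log2 fold change scale.

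Break sensing and end resection also had 0 of 6 genes past the test, and held the member with the highest fold change. Rbbp8 encodes CtIP, which starts resection together with the MRN complex. It stood at 21.9 and 20.9 CPM in WT and 29.4 and 27.5 CPM in Vil-CREPTKO, with no overlap. The log2 fold change was 0.41 (SE 0.135, 95% interval 0.1 to 0.72), at an unadjusted p of 0.015 and an adjusted p of 0.189 in the edgeR fit. The MRN genes themselves differed little. Mre11a, the nuclease, was at 21.4 and 23 CPM in WT and 18.2 and 23.6 CPM in Vil-CREPTKO. Rad50, the ATPase of the complex, read at 35.9 and 35.1 CPM in WT and 36.1 and 40.4 CPM in Vil-CREPTKO. Nbn, the subunit that recruits ATM, read at 19.9 and 20.9 CPM in WT and 20.5 and 19.5 CPM in Vil-CREPTKO, and its log2 fold change of −0.03 had an interval of −0.35 to 0.29. The resection nuclease gene Exo1 was lower in both Vil-CREPTKO libraries, at 9.92 and 11.6 CPM against 13.5 and 12.8 CPM in WT, a difference that missed the threshold (−0.29, adjusted p = 0.519). The helicase gene Blm leaned the other way, at 11.5 and 15.5 CPM against 10.8 and 12.9 CPM in WT (0.19, adjusted p = 0.745).

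Homologous recombination was the largest role, with 11 genes, of which 0 passed the test. Of the 11, 9 had a negative and 2 a positive log2 fold change, with a median of −0.15. Over all genes tested, 8913 were negative and 8591 positive. All 11 lay below the WT mean in Vil-CREPTKO replicate 1, and 7 did in replicate 2. Rad54l, the motor protein that remodels DNA during strand exchange, came nearest to the threshold. It stood at 19.5 and 20.3 CPM in WT and at 10.9 and 14.2 CPM in Vil-CREPTKO, 63% of WT, with no overlap. The log2 fold change was −0.67 (SE 0.173, 95% interval −1.06 to −0.27, adjusted p = 0.0971). With DESeq2 its adjusted p was 0.0476 and without a filter on low counts 0.0138, whereas leaving out 1 library gave 0.064 to 0.324.

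Brca1 and Brca2, whose proteins direct the choice of recombination and load the recombinase on resected DNA, differed in sign and neither passed. Brca1 read at 19.1 and 22.2 CPM in WT and 20.5 and 23 CPM in Vil-CREPTKO, which gave a log2 fold change of 0.07 (95% interval −0.27 to 0.42, adjusted p = 0.89). Brca2 read at 16.8 and 13.6 CPM in WT and 10.7 and 13.3 CPM in Vil-CREPTKO, lower in both Vil-CREPTKO libraries but short of the threshold (−0.34, 95% interval −0.77 to 0.08, adjusted p = 0.466). The partners of these proteins were read too. Bard1, the obligate partner of BRCA1, and Palb2, which bridges BRCA1 and BRCA2, each had a log2 fold change of −0.15, with adjusted p-values of 0.805 and 0.814. Rad52, an annealing protein, read at −0.13 (95% interval −0.64 to 0.38). The recombinase paralogs Rad51b, Rad51c, Rad51d, Xrcc2 and Xrcc3, which assist filaments on single-stranded DNA, had log2 fold changes of −0.28 to 0.11. Of these, Xrcc3 was at 19 and 16.9 CPM in WT and 15.5 and 14.6 CPM in Vil-CREPTKO, and Rad51d at 15 and 15.5 CPM in WT and 12.6 and 13.7 CPM in Vil-CREPTKO. Both were lower in each Vil-CREPTKO library without passing the test (adjusted p = 0.52 and 0.613). Rad51c, at 1.36 to 2.05 CPM over the 4 libraries, was too scarce for a bound within 2-fold (95% interval −1.07 to 0.51).

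Rad54l and the next gene, Pomgnt1, start 150 bases apart on chromosome 4 and are transcribed in opposite directions. Pomgnt1, which encodes a glycosyltransferase of dystroglycan, fell from 19.7 and 17.8 CPM in WT to 7.48 and 6.72 CPM in Vil-CREPTKO, a change of −1.4 on the log2 scale (SE 0.168, adjusted p = 0.00566). At the other end Rad54l shares 15.4% of its exon bases with Lrrc41 on the opposite strand, which stood at 30.9 and 31.7 CPM in WT and 30 and 27.2 CPM in Vil-CREPTKO (−0.13, adjusted p = 0.73). Pomgnt1 and Lrrc41 were looked at because they adjoin Rad54l, after its values were seen.

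The stretches before the starts of Rad54l, Brca2 and Mdc1 are shown to set the shared stretch of the member next to the threshold beside those of members that hold an E2F motif. Searched on both strands of the 250 bases before each start were E2F motifs (TTTGGCGC, TTTCCCGC, TTTGGCGG, TTTCCCGG, TTTGCCGC, TTTCGCGC and TTTGCGC), CHR motifs (TTTGAA and TTTAAA) and the CCAAT box (CCAAT), all of which are known from promoters of cell cycle genes. Overlapping matches were allowed, and a gene counted once for each class, whichever of its promoters held the motif. The table held a promoter for 39 of the 47 members. An E2F motif stood in 6 of them (15.4%), against 8.35% of the tested genes with a promoter and 5.13% of all genes of the promoter table. In the same order, a CHR motif stood in 17.9%, 21.6% and 28.1%, and a CCAAT box in 48.7%, 40% and 37.5%. An E2F motif also stood in 11.1% of 99 repair genes from the further lists below and in 25% of 20 proliferation markers. The 6 members with an E2F motif were Bard1, Brca2, Chek2, Mdc1, Msh3 and Xrcc6, none of which passed the expression test. Capitals mark motif letters, and sequences run toward the start site. They lie at chr4:116123691-116123839 on the minus strand, which is the whole interval between Rad54l and Pomgnt1, at chr5:150522371-150522620 on the plus strand and at chr17:35841248-35841497 on the plus strand.
Rad54l: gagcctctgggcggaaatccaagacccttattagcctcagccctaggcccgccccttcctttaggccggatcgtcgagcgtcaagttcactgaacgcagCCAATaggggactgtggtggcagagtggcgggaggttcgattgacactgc
Brca2: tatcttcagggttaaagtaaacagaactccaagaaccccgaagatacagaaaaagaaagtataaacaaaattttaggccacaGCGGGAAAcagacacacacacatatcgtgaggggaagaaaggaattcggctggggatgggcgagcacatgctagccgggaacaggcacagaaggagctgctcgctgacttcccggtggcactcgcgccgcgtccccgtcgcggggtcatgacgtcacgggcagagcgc
Mdc1: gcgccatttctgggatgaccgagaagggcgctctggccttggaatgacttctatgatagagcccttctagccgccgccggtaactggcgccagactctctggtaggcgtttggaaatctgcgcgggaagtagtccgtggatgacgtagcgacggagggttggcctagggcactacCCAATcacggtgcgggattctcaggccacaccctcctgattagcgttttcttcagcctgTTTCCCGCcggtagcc

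Rad54l held a CCAAT box 50 bases before its start and no E2F motif, Brca2 held an E2F motif on the opposite strand, and Mdc1 held both an E2F motif and a CCAAT box. These are matches of letters and no binding was measured in these libraries.

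Non-homologous end joining had 0 of 6 genes past the test. The 3 genes of the DNA-PK holoenzyme read in both directions. Xrcc6, a subunit of the Ku ring that threads onto broken ends, stood at 33.7 and 33.2 CPM in WT and 25.4 and 28.5 CPM in Vil-CREPTKO, lower in both. Its log2 fold change was −0.31 (95% interval −0.61 to −0.01) at an unadjusted p of 0.0431 and an adjusted p of 0.325 in the edgeR fit. Xrcc5, its partner subunit, stood at 12 and 11.6 CPM in WT and 12.7 and 15.2 CPM in Vil-CREPTKO, higher in both (0.24, 95% interval −0.14 to 0.63, adjusted p = 0.591). Prkdc, the catalytic subunit, stood at 31 and 30.6 CPM in WT and 33.2 and 40.9 CPM in Vil-CREPTKO, also higher in both (0.27, 95% interval −0.05 to 0.59, adjusted p = 0.447). No difference between these genes was tested. Lig4, the ligase that closes the joint, was among the steadiest members, at 23.4 and 24 CPM in WT and 25.2 and 24.2 CPM in Vil-CREPTKO. Its log2 fold change of 0.06 had an interval of −0.25 to 0.36. Xrcc4 and Nhej1, which hold the ligase at the ends, read at −0.04 and 0.04.

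The Fanconi genes gave 0 of 7 calls and a median of −0.11. Fancd2 and Fanci, which form the clamp that is ubiquitinated at a crosslink, read at 10.1 and 11.3 CPM and at 6.7 and 6.87 CPM in WT. In Vil-CREPTKO the values were 8.84 and 12.3 CPM for Fancd2 and 5.22 and 7.33 CPM for Fanci, with the low value below and the high value above both WT libraries in each gene. Their log2 fold changes were −0.01 (95% interval −0.48 to 0.45) and −0.11 (−0.63 to 0.41). Fanca, a part of the core ubiquitin ligase complex, stood at 19 and 19.3 CPM in WT and 14.6 and 19.4 CPM in Vil-CREPTKO (−0.17, adjusted p = 0.733). Fancb, the X-linked member, read at 4.82 and 4.04 CPM in WT and 4.26 and 5.46 CPM in Vil-CREPTKO. Fancm, the translocase that anchors the core complex on DNA, was lower in both Vil-CREPTKO libraries, at 8.51 and 10.3 CPM against 11.7 and 10.6 CPM in WT (−0.25, adjusted p = 0.623). Fancl, the ubiquitin ligase subunit, and Fancc, another core subunit, read at −0.14 and 0.1 with overlapping groups. In all 7 genes Vil-CREPTKO replicate 1 was the lower of the 2 Vil-CREPTKO libraries.

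Of the mismatch repair genes, 0 of 3 passed the test. Msh6, a partner in the dimer that finds mispaired bases, was the second most abundant member per length (10.8 RPKM in WT) and stood at 44.6 and 48.9 CPM in WT and 38.7 and 45.5 CPM in Vil-CREPTKO. The log2 fold change was −0.15 (95% interval −0.45 to 0.15, adjusted p = 0.681). Msh3, which forms the alternative dimer for larger loops, and Pms2, a subunit of the endonuclease that follows, had log2 fold changes of 0.07 and −0.22. Pms2 was lower in both Vil-CREPTKO libraries, at 7.36 and 8.11 CPM against 8.56 and 9.49 CPM in WT (adjusted p = 0.667), and shares exon bases with Rsph10b and Gm42421 on the same strand.

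The 2 Vil-CREPTKO libraries differed from each other in most members. Of the 47 genes, 41 (87.2%) read lower in Vil-CREPTKO replicate 1 than in replicate 2, beside 50.1% of all genes tested. Vil-CREPTKO replicate 1 was the lowest of the 4 libraries in 26 genes (55.3%, beside 28.7% of all genes). On the log2(CPM + 0.5) scale the members' median difference from the WT mean was −0.21 in replicate 1 and 0.08 in replicate 2. The summed CPM of the 47 genes was 846 and 861 for the WT libraries, 750 for Vil-CREPTKO replicate 1 and 883 for replicate 2. The proliferation markers moved with them, with 23 of 23 lower in replicate 1 than in replicate 2, as did 10 of 10 stem cell markers, while 10 of 10 enterocyte markers were higher in replicate 1. Mitochondrial transcripts took 10.2% of the counts in replicate 1, 7.62% in replicate 2 and 6.75% to 6.93% in WT. The part of cell make-up or RNA quality in this difference was not tested. Without Vil-CREPTKO replicate 2 the members' median log2 fold change was −0.21 and 28 members (59.6%, beside 40% of all genes tested) lay below both WT libraries in replicate 1 alone. Lig3 read 1.07 below WT in replicate 1 and 0.99 below in replicate 2 on the log2(CPM + 0.5) scale, and was the lowest member in both libraries.

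**Figure D3:**
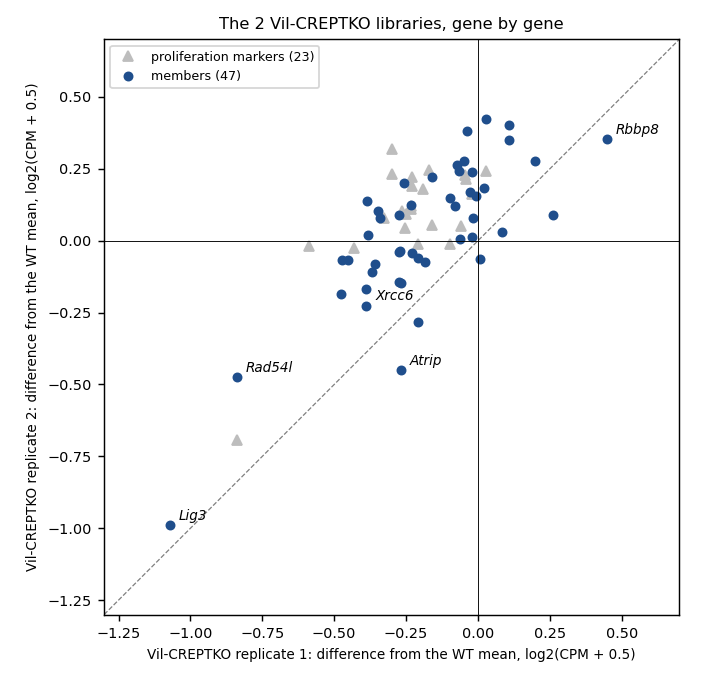
Difference of each gene from the WT mean on the log2(CPM + 0.5) scale in Vil-CREPTKO replicate 1 (x axis) and replicate 2 (y axis), for the 47 members (circles) and 23 proliferation markers (triangles); the dashed line marks equal values. Most points lie above the line, with 41 of 47 members and 23 of 23 markers lower in replicate 1, and Lig3 lies near the line at about −1 in both.

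Repair genes outside the 47 were read from 8 further lists with 122 names, of which 3 were not matched by name and 118 were tested. Of these, 5 fell (4.24%, beside 2.29% of all genes) and 0 rose (beside 0.423%) at an adjusted p under 0.05, and their median log2 fold change was 0.03. The 5 were Eme1, Eme2, Mus81, Babam1 and Ogg1. MUS81 is a nuclease subunit that acts on recombination intermediates and stalled forks, paired with EME1 or EME2. Eme1 stood at 8.34 and 8.35 CPM in WT and 2.53 and 2.55 CPM in Vil-CREPTKO, a change of −1.72 on the log2 scale (SE 0.218, adjusted p = 0.0063). Eme2 stood at 6.01 and 6.32 CPM in WT and 1.79 and 1.69 CPM in Vil-CREPTKO (−1.82, SE 0.251, adjusted p = 0.00854). Mus81 stood at 8.72 and 8.13 CPM in WT and 3.38 and 2.73 CPM in Vil-CREPTKO (−1.46, SE 0.226, adjusted p = 0.0133). The 3 genes thus read at 28.3% to 36.3% of WT, with no overlap. They lie on chromosomes 11, 17 and 19. Genes of other resolving nucleases in the same list missed the threshold, with log2 fold changes of −0.12 for Gen1 (adjusted p = 0.819), −0.02 for Slx4 (adjusted p = 0.977) and −0.96 for Slx1b (adjusted p = 0.0617).

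The annotated spans of all 3 overlap those of neighbours that did not pass the test. Mrpl27, which overlaps Eme1 head to head, had a log2 fold change of −0.21 (adjusted p = 0.512), Lrrc59 at its other end 0.08 (adjusted p = 0.899). Spsb3, on the opposite strand, overlaps 3667 bases of the 6602-base span of Eme2 and read at 0.11. Mapk8ip3, on the same strand, overlaps 2935 bases and read at 0.28. It stood at 46.5 to 66.1 CPM over the 4 libraries, so the Eme2 counts can depend on how reads were assigned. Efemp2, which overlaps Mus81, read at 0.00. The adjusted p of Eme1, Eme2 and Mus81 stayed at or under 0.0477 with any 1 library left out. The 227 bases before the Mus81 start are shown because no exon of another gene lies in them. They lie at chr19:5488403-5488629 on the minus strand of GRCm38.p6 and hold none of the motifs searched.
Mus81: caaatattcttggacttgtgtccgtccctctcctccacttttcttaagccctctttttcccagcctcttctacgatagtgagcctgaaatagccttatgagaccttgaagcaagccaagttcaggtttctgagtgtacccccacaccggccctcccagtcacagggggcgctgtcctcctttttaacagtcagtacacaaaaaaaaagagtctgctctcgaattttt

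The other genes that fell were in base excision repair and break-site signalling. Babam1, a scaffold of the BRCA1-A deubiquitinase complex, fell from 54.2 and 58.5 CPM to 29.4 and 28.5 CPM (−0.96, SE 0.12, adjusted p = 0.00618). Ankle1, a nuclease gene that begins 1391 bases after the end of Babam1 and was chosen after its values were seen, read at 22.4 and 13.5 CPM in WT and 3.66 and 2.83 CPM in Vil-CREPTKO (−2.47, adjusted p = 0.00441). Ogg1, the glycosylase for oxidised guanine, fell from 7.58 and 7.98 CPM to 3.52 and 4.13 CPM (−1.02, SE 0.216, adjusted p = 0.0465). Ogg1 lost the call whichever library was left out, with adjusted p-values of 0.0764 to 0.168. By list, the calls were 1 of 18 base excision genes (5.56%), 3 of 29 further double-strand break genes (10.3%) and 1 of 16 further break-site signalling genes (6.25%). Over all genes tested 2.29% fell, and in these short lists 1 call is a large share. None of 19 nucleotide excision, 8 translesion, 13 replication stress, 12 further Fanconi and 3 further mismatch genes passed in edgeR. Of these 55 genes, 4 had an unadjusted p under 0.05, and DESeq2 called 1, Faap100.

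**Figure D4:**
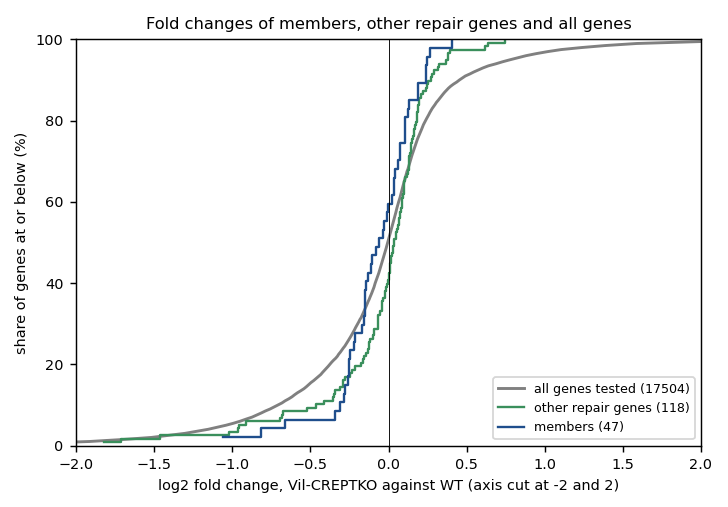
Cumulative share of genes (y axis, %) at or below each log2 fold change (x axis, Vil-CREPTKO against WT) for all 17504 genes tested (grey), the 118 other repair genes tested (green) and the 47 members (blue). The members' curve is steeper than that of all genes, with 93.6% of the members and 75.7% of all genes between −0.5 and 0.5. The median SE was 0.173 over the members, 0.166 over the other repair genes and 0.201 over all genes.

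The transcripts that p53 induces after damage were read as a readout of signalling, from a list of 20 genes. In these unirradiated crypts 4 rose (20%, beside 0.423% of all genes) and 1 fell (5%, beside 2.29%) at an adjusted p under 0.05. Of the 20, 18 had a positive log2 fold change, beside 8591 of the 17504 genes tested. In 11 (55%, beside 21% of all genes) both Vil-CREPTKO libraries lay above both WT libraries. Since the list was chosen with earlier results of these data known, these counts describe it and do not test it. Phlda3, an inhibitor of AKT, stood at 0.842 and 0.955 CPM in WT and 5.91 and 7.68 CPM in Vil-CREPTKO, a change of 2.92 on the log2 scale (SE 0.288, adjusted p = 0.00311). Eda2r, a death receptor gene on the X chromosome, stood at 1.23 and 1.62 CPM in WT and 7.32 and 10.4 CPM in Vil-CREPTKO (2.63, SE 0.285, adjusted p = 0.00426), and its adjusted p stayed at or under 0.0133 with any 1 library left out. Ccng1, a cyclin gene, rose by 0.87 (adjusted p = 0.00931) and Zmat3, an RNA-binding protein gene, by 0.85 (adjusted p = 0.0233). Btg2, an antiproliferative gene, fell by 0.75 (adjusted p = 0.0208). Mdm2, which encodes the ubiquitin ligase of p53, and Bax, which encodes a pore protein of apoptosis, were not called, at 0.34 (adjusted p = 0.33) and 0.37 (adjusted p = 0.24), with both Vil-CREPTKO libraries above both WT libraries. Cdkn1a, the cell cycle inhibitor of the list, was not called either, at 153 and 182 CPM in WT and 202 and 144 CPM in Vil-CREPTKO. Without WT replicate 2 the adjusted p was 0.0574 for Zmat3 and 0.0971 for Btg2, and without Vil-CREPTKO replicate 2 it was 0.078 and 0.0534. How the p53 list and the repair genes relate to each other was not tested.

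**Figure D5:**
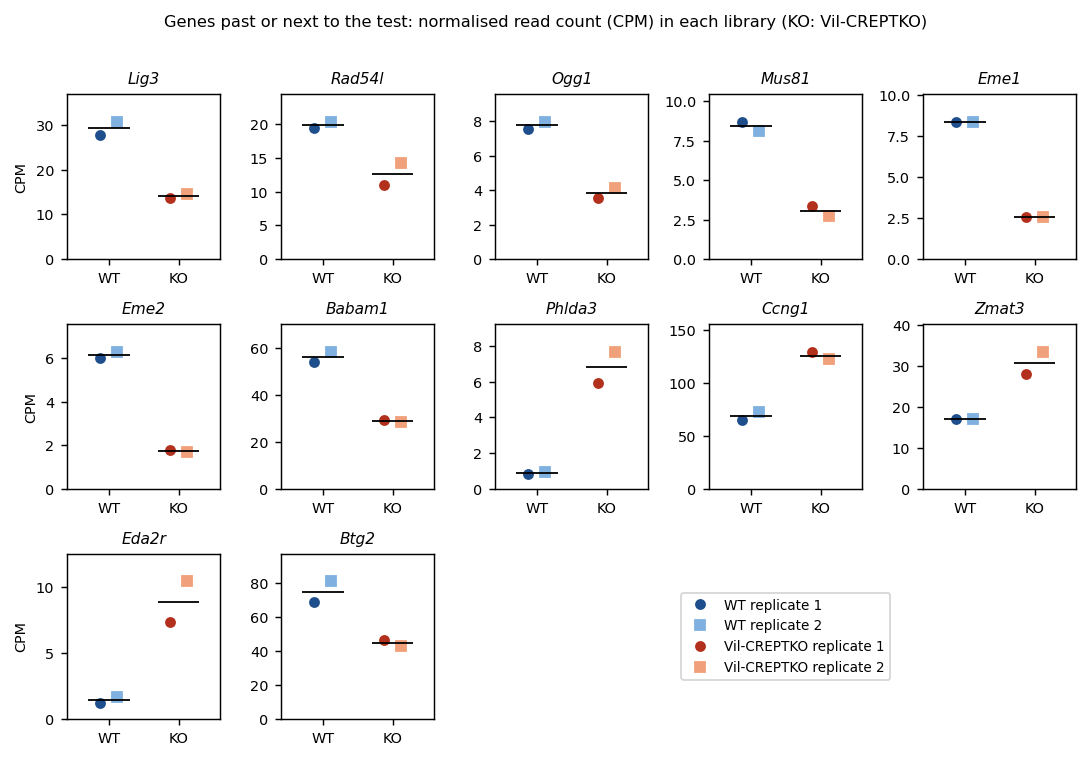
Normalised read count (CPM, linear axis from 0) in each library of Lig3, Rad54l and the 10 genes of the other lists with an adjusted p under 0.05; horizontal lines are group means of 2 libraries (KO, Vil-CREPTKO). In every panel the 2 Vil-CREPTKO libraries lie on the same side of both WT libraries, below them in 8 genes and above them in Phlda3, Ccng1, Zmat3 and Eda2r.

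Members varied in level over more than 2 orders of magnitude per length. WT levels ran from 0.0727 RPKM in Atrip to 12.1 RPKM in Parp1, with a median of 1.92 RPKM. Next to Parp1 came Msh6 at 10.8, Parp2 at 8.92, Nbn at 8.06 and Xrcc6 at 7.47 RPKM, and next to Atrip came Rnf8 at 0.368 and Rad51c at 0.431 RPKM. Lig3 ranked 15 of 47 in WT, at 4.03 RPKM. Of the 47 genes, 20 share exon bases with a gene on the opposite strand and 5 with a gene on the same strand, so part of their counts can belong to either gene of a pair. Over the members, the log2 fold change had a Spearman correlation of −0.36 with the GC content of the longest transcript and 0.36 with the genomic length of the gene. Over all genes tested the correlation with genomic length was 0.04, and that with GC content was not obtained. The values for the members are given as a description over 47 genes that share the same 4 libraries.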

How the data were processed

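Crypt RNA of 4 mouse libraries was sequenced. Per the submitters' processing notes, CASAVA 1.8, Bowtie2, RSEM and genome GRCm38.p6 were used. The methods name BGISEQ and the sample record an Illumina instrument. The strand setting, the annotation and the Bowtie2 and RSEM versions were not given in the sources used here. The table deposited by the authors holds whole-number read counts per Ensembl gene, unnormalized, in 1 column per library. Of its 53845 genes, 53360 matched GENCODE M21, which gave symbols and coordinates, and 380 were unnamed loci with 0.178% to 0.247% of the counts of a library.

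Counts were analysed with edgeR 4.0.16 in R 4.3.3 (filterByExpr, TMM, glmQLFit, glmQLFTest, group as the only term, two-sided). P-values were adjusted by Benjamini-Hochberg over all 17504 genes tested. The SE was the log2 fold change divided by the square root of F, and the 95% interval used the quantile of the fit's t distribution. The method was tested on simulated data. The common biological coefficient of variation was 0.188, so at high counts the spread between libraries and not counting error set the precision. In the 2 members with under 100 counts in a library, Atrip and Rad51c, counting error weighed more. A chi-square comparison gave 49.8 per gene between the WT and 70.1 between the Vil-CREPTKO libraries, so all 4 were used as separate samples. Deviations of same-numbered libraries correlated at 0.0277, so the numbers were not used as pairs.

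The 47 genes and all lists were chosen with earlier results of these data known. Named were members with an adjusted p under 0.05, the 6 lowest and 6 highest fold changes, members that define each role, and genes of the other lists with an adjusted p under 0.05. Other genes are named as neighbours or to complete a role. Alternatives were scaling by RLE, by the upper quartile or by library size alone, fits with no filter or with at least 10 counts in every library, DESeq2 1.42.0 (the study's tool), glmTreat, a replicate block, a loess correction for GC content and length, and each library left out. Promoters were read from a RefSeq table of GRCm38.p6. A few repair genes are not reported here.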

Additional observations from a re-analysis of the deposited data

How the results depend on the processing

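The count of members with an adjusted p under 0.05 was 1 (Lig3) in the reported fit and with the replicate block, RLE, upper-quartile and library-size scaling, at least 10 counts in every library, the GC and length correction and each library left out. It was 2 (Lig3 and Rad54l) with no filter on low counts and with DESeq2, and 0 with glmTreat, which tests against a 2-fold change. Past 2-fold as well, the count was 0 with glmTreat and with the GC and length correction, and 0 to 1 with 1 library left out (0 without WT replicate 2). The other lists gave 10 calls in the reported fit, 2 with glmTreat (Eda2r and Phlda3), 13 with the replicate block and 8 to 10 with 1 library left out. With the replicate block the adjusted p of Lig3 was 0.0071, and the block lost no call; the numbers are not known to pair animals. Members below WT in every library numbered 12 (25.5%, beside 24.2% of all genes tested), and 13 to 28 with 1 library left out, which loosens the criterion by construction. Leaving out Vil-CREPTKO replicate 2 gave 28 (59.6%, beside 40% of all genes), and leaving out Vil-CREPTKO replicate 1 gave 13 (27.7%, beside 36.3%). Leaving out a WT library gave 19 (40.4%, beside 36%, replicate 1) or 17 (36.2%, beside 38.3%, replicate 2). The cause of the other shifts was not tested.

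Of 456 refits of named genes, 418 kept direction and side of the threshold, 12 lost and 2 gained a call, and 24 reversed, all in members that missed the threshold in the reported fit. With 1 library left out, log2 fold changes ran from −0.39 to 0.13 for Atm, −0.042 to 0.39 for Blm, −0.0302 to 0.185 for Brca1, −0.095 to 0.15 for Chek1, −0.39 to 0.018 for Fanca, −0.27 to 0.2025 for Fancd2, −0.37 to 0.11 for Fanci, −0.28 to 0.088 for Mre11a, −0.068 to 0.013 for Nbn and −0.16 to 0.22 for Parp1. Each turned sign without either Vil-CREPTKO replicate 1 (Atm, Fanca, Fancd2, Fanci, Mre11a) or replicate 2 (the others), Brca1 also without WT replicate 1, and Atm, Fancd2 and Nbn also without WT replicate 2. With library-size scaling the values of the genes that turned were −0.012 for Brca1, −0.052 for Chek1, −0.035 for Lig4 and −0.039 for Parp1. Upper-quartile scaling gave 0.0064 for Nbn and 0.020 for Fancd2. Fancd2 was 0.0039 with RLE scaling, 0.0024 with DESeq2 and 0.030 with the GC and length correction, which gave 0.0042 for Xrcc1. With 12 counts in its lowest library, Atrip was limited by depth.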
